A study of Homo sapiens with 12 samples.

Results

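The genes described here are 42 human genes of the NF-kB pathway and its inflammatory cytokines, chosen by symbol from a table of 60664 genes. They comprise 5 NF-kB subunits, 5 IkB proteins counting BCL3, 4 kinases of the IKK step, 8 adaptors, 6 feedback and cell death regulators, 2 effector targets, 9 cytokines and 3 receptors. Each symbol matched 1 row. The series asks what miR-628-3p does to messenger RNA in hepatocellular carcinoma cells. Huh7 cells, a line with many hepatocyte genes on, received either a miR-628-3p mimic or a negative control mimic ("mimics-NC"). MHCC97H cells, a line derived from a metastatic liver cancer, carried either an empty vector or the vector named pGreen-628 that overexpresses miR-628-3p. Each of the 4 groups had 3 libraries, both lines are labelled WT, and the labels list no drug or cytokine treatment. Mimic dose, time after transfection, the promoter of the vector and whether the vector line is 1 clone are missing from the labels. Since the lines differ in delivery as well as in origin, line and delivery cannot be told apart. Poly-A selected libraries do not measure a mature microRNA, so the level of miR-628-3p itself was not analysed here.

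NF-kB is a family of dimeric transcription factors held in the cytoplasm by IkB proteins. Signals from receptors for TNF, IL-1 or TWEAK pass through adaptors to the IKK complex, which marks IkB for destruction and frees the dimers to enter the nucleus. There they switch on cytokines, survival genes and their own inhibitors, TNFAIP3 and NFKBIA among them. In the liver the pathway is known for its place in the acute phase response, in hepatocyte survival and in cancers that arise on chronic inflammation.

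The microRNA is shown first because its bases 2 to 8, in capitals, set which messages it can pair with. It lies at GRCh38.p14 chr15:55372954-55372974 on the minus strand (sequence from RefSeq).
hsa-miR-628-3p: uCUAGUAAgaguggcagucga
The complement of that seed, TTACTAG, was searched on the message strand in the longest annotated 3′ UTR of protein-coding transcripts (GENCODE release 29), and 1300 of 19110 genes (6.80%) held it. Among the 42 pathway genes 2 held it (4.76%), REL and IKBKB. The related form TACTAGA, the complement of bases 2 to 7 followed by an A, stood in RIPK1 alone among the 42. Its share over all genes is not given here. REL encodes c-Rel, a subunit known mostly from lymphoid cells. The match in REL starts at base 4189 of a 3′ UTR of 9075 bases in ENST00000295025, and its capitals mark the 7 bases.
REL site: acccaagatacTTACTAGgaacctcaaag
A match is a description of letters and not a shown target site. REL itself stayed below a mean of 1 FPKM (fragments scaled to exon length and library total) in every group. Its levels were 0.344, 0.644 and 0.470 FPKM in the Huh7 control libraries and 0.635, 0.745 and 0.667 with the mimic. In MHCC97H they were 0.290, 0.293 and 0.266 with the empty vector and 0.424, 0.248 and 0.668 with miR-628-3p, so the groups overlapped in both lines. IKBKB encodes IKK beta, the kinase that phosphorylates IkB in the canonical pathway. It measured 14.4, 14.1 and 13.9 FPKM with the empty vector and 11.9, 11.6 and 11.8 with miR-628-3p in MHCC97H. These groups did not overlap, and the change of -0.25 (log2, SE 0.06) had an adjusted p of 0.0552 by limma. In Huh7 its change was -0.07, with an adjusted p of 0.368.

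Promoters are shown for 3 members that hold matches to the kappaB consensus, the motif NF-kB dimers bind. The consensus was searched on both strands of RefSeq promoters (GRCh38.p14), which span 250 bases before to 50 after a start, and overlapping matches were counted separately. A match stood in 1937 of 27305 genes (7.09%) and in 13 of the 34 pathway genes with an entry (38.2%). The 13 are NFKB1, NFKB2, REL, NFKBIA, NFKBIB, NFKBIZ, BCL3, TNFAIP3, TNIP1, BIRC3, IL32, IL6 and LTB, and 8 members had no entry. The capitals below mark the matched bases, and in IL32 they mark a pair of matches shifted by 1 base.
NFKBIZ promoter, plus strand, chr3:101827740-101828039: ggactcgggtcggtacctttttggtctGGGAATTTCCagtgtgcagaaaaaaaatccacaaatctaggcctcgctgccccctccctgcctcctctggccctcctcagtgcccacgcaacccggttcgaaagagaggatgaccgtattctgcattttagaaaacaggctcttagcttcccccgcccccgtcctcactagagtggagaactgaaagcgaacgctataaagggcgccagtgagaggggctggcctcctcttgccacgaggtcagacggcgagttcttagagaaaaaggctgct
BIRC3 promoter, plus strand, chr11:102317234-102317533: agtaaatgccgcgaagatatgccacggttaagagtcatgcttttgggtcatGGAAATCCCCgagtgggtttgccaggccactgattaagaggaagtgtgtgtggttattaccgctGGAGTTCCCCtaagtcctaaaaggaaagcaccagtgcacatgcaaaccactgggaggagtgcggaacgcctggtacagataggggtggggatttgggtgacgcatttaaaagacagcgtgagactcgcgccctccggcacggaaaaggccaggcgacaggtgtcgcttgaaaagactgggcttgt
IL32 promoter, plus strand, chr16:3065153-3065452: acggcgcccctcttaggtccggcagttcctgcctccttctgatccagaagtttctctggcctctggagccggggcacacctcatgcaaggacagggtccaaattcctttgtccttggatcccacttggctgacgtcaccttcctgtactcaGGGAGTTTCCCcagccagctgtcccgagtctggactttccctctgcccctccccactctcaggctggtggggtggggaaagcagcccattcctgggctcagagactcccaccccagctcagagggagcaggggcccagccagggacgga
The matches begin 223 bases before the start in NFKBIZ, 199 and 135 bases before it in BIRC3, and 99 and 98 bases before it in IL32. NFKBIZ and IL32 each have a further promoter entry that is not shown. That of NFKBIZ (chr3:101849264-101849563) holds 1 match, 239 bases before its start, and that of IL32 (chr16:3065534-3065833) holds 0. NFKBIZ and BIRC3 are 2 of the genes whose response differed between the lines, and IL32 was the pathway gene with the highest mean level in Huh7 control cells.

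Libraries held 16472932 to 19578875 reads each. Reads were worked back from the deposited FPKM, and 100% of values came out within 0.01 of a whole read. Hepatocyte markers at a mean of at least 1 FPKM numbered 10 of 10 in Huh7 and 8 of 10 in MHCC97H, with summed levels of 12468 to 14089 and 1902 to 2473 FPKM. Between the control libraries 8 of the 10 were lower in MHCC97H, ALB by -8.8 and AFP by -10.3 on the log2 scale among them. KRT8 (0.79) and KRT18 (0.28) were higher there. Of 8 leukocyte markers LYZ and CD14 reached a mean of at least 1 FPKM in Huh7 (sum 136 to 179 FPKM). In MHCC97H LYZ reached it in both groups and ITGAM with the empty vector alone (sum 3.30 to 4.13 FPKM). The T cell marker CD3E had 0 reads in all MHCC97H libraries, and CSF1R, the receptor for CSF1, had 0 reads in all Huh7 libraries. Some libraries stand apart. MHCC97H miR-628-3p libraries 2 and 3 differed with a chi-square per degree of freedom of 40.0 across genes, against 2.05 to 14.3 for the other pairs within a group. In that group the Spearman rho between GC content and the deviation of genes from their mean was 0.23 and 0.65 in libraries 1 and 2 and -0.53 in library 3. In Huh7 it was 0.43 to 0.65 in the controls and -0.65 to -0.46 with the mimic, so GC content and the Huh7 groups move together.

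Between the control libraries of the lines most pathway genes differed in level, as most genes of the table did. A gene is called where limma on log2(FPKM + 1) gave a Benjamini-Hochberg adjusted p under 0.05 over all genes with a mean of at least 1 FPKM in the libraries compared. The background was high, with 84.5% of 13191 genes called between MHCC97H vector and Huh7 control mimic libraries. Of the 36 pathway genes tested 32 were called, a share near that background, 26 of them higher in MHCC97H and 6 lower, where 42.3% and 42.2% of all genes were. The median difference of the tested pathway genes was 0.78 on the log2 scale, against 0.00 over all genes. LIF, IL1B, TNFRSF1B and MAP3K14 are among the 26 and passed the expression filter through MHCC97H alone. They add nothing to the count or to the median as support. Line and kind of control cannot be told apart in this comparison.

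Among cytokines the contrast was widest. CSF1, the growth factor of macrophages, averaged 8.31 ± 0.561 FPKM in Huh7 and 60.0 ± 3.45 in MHCC97H, where ± is the SD of 3 libraries. LIF, an IL-6 family cytokine that acts through gp130 and STAT3, averaged 0.206 ± 0.0586 FPKM on 11 to 18 reads per library in Huh7 and 9.89 ± 0.820 in MHCC97H, 48.1 times as much. IL1B, the secreted inflammatory IL-1, averaged 0.275 ± 0.122 FPKM in Huh7 and 12.7 ± 0.374 in MHCC97H. IL1A, which also acts as an alarm signal from damaged cells, had 0 reads in all 3 Huh7 control libraries (a limit of 3 reads in each) and averaged 1.89 ± 0.266 FPKM in MHCC97H. Other cytokines went the opposite way or were scarce in both lines. IL32 was higher in Huh7, at 104 ± 4.78 against 42.6 ± 1.03 FPKM. IL18, an IL-1 family cytokine, was near 27 to 29 FPKM in both lines (26.9 ± 1.54 in MHCC97H and 28.96 ± 2.32 in Huh7), and its difference of -0.10 was not called (95% interval -0.26 to 0.06). IL6, TNF and LTB stayed below a mean of 1 FPKM in the controls of both lines, and TNF had 0 reads in all 3 MHCC97H miR-628-3p libraries, again a limit of 3 reads in each.

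The receptors were all higher in MHCC97H, though TNFRSF1B passed the expression filter through that line alone. TNFRSF1A, the main TNF receptor, was at 177 ± 3.11 FPKM against 42.3 ± 2.73 in Huh7, and TNFRSF12A, the receptor for TWEAK, at 80.1 ± 6.87 against 30.6 ± 1.59. TNFRSF1B, the TNF receptor typical of immune cells, averaged 2.56 ± 0.299 FPKM in MHCC97H and rested on 2 to 5 reads per library in Huh7. IRAK1, a kinase that relays IL-1 and Toll-like receptor signals, ranked second among the 42 genes in MHCC97H, at 117 ± 6.29 FPKM against 26.0 ± 0.967 in Huh7.

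Subunits of the noncanonical branch showed the same direction, but it was not particular to them. RELA was higher in MHCC97H too, at 27.8 against 15.4 FPKM in Huh7. RELB averaged 9.75 ± 0.482 FPKM in MHCC97H and 2.04 ± 0.164 in Huh7, NFKB2 (p100/p52) 18.7 ± 0.623 and 7.12 ± 0.333, and MAP3K14, the NIK kinase that starts this branch, 3.23 ± 0.206 and 0.584 ± 0.0976. BIRC3, a ubiquitin ligase that limits cell death, was 6.97 times as high in MHCC97H, at 14.4 ± 0.348 FPKM. The 6 genes lower in MHCC97H were NFKBIZ (6.57 ± 0.558 against 21.7 ± 0.825 FPKM), IL32, SOD2 (15.2 ± 0.333 against 31.5 ± 0.713), the kinase CHUK (means of 11.4 against 16.9), MYD88 and NFKB1. On the values as deposited, differences were not called for RIPK1, TNFAIP3, TNIP1 and IL18, with adjusted p between 0.18 and 0.50. After a correction of each library for GC content and transcript length, TNIP1 (-0.32, adjusted p = 0.000173 by limma) and TNFAIP3 (-0.22, adjusted p = 0.012) were called lower in MHCC97H. IL18 was then called too, while TRAF2 and NFKBIE lost their calls. ICAM1 turned from 0.16, called higher, to -0.12 (adjusted p = 0.0244). The median of the tested pathway genes was then 0.55.

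**Figure D1:**
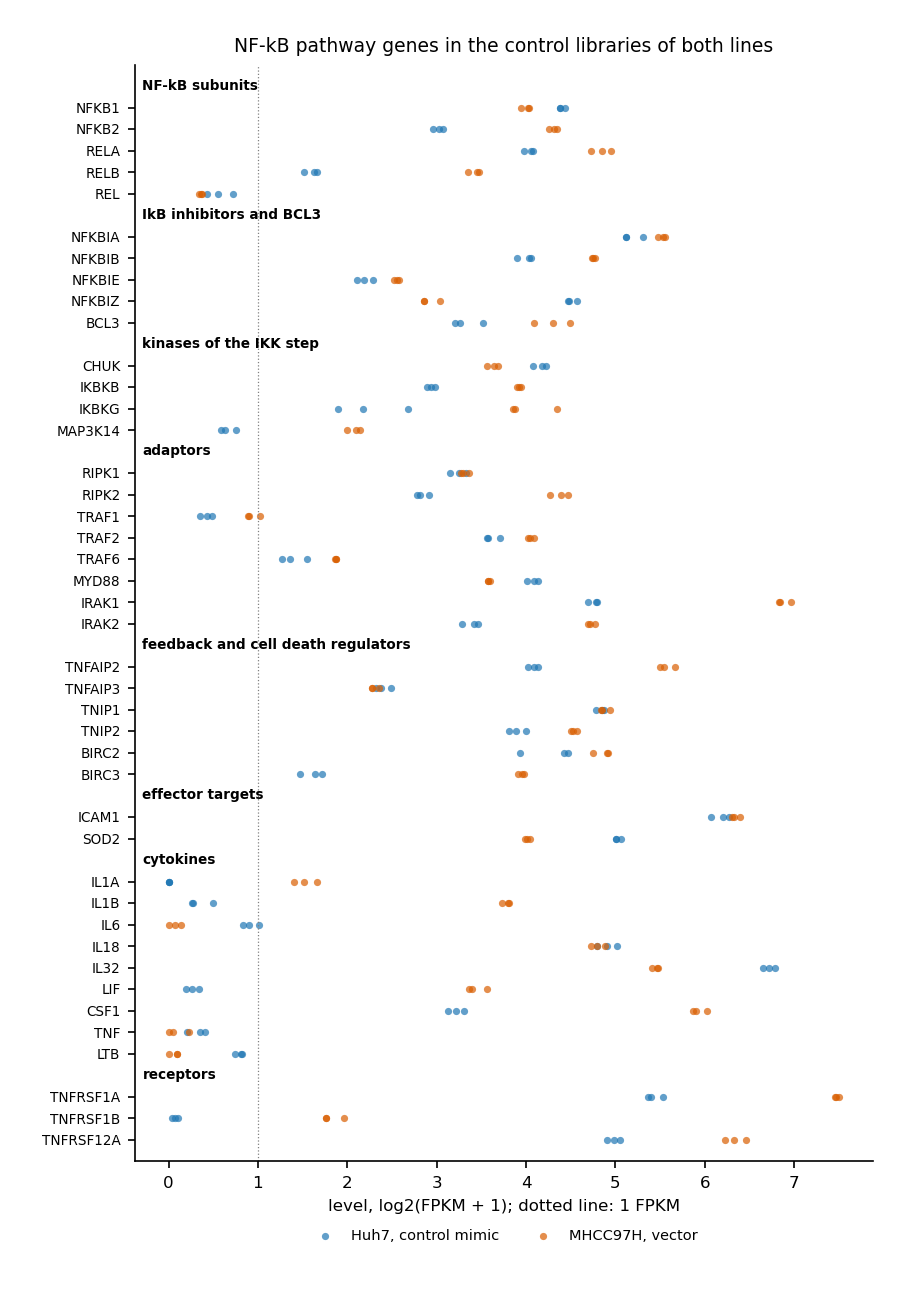
Level of each of the 42 pathway genes on the log2(FPKM + 1) scale, grouped by role, in 3 Huh7 control mimic libraries (blue) and 3 MHCC97H vector libraries (orange), 1 point per library. The dotted line marks 1 FPKM; LIF, IL1A, IL1B, TNFRSF1B and MAP3K14 lie under it in Huh7 and above it in MHCC97H.

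With miR-628-3p in MHCC97H, 6 of the 37 pathway genes tested were called and all 6 fell: the cytokines LIF, CSF1, IL1A and IL1B, the receptor TNFRSF12A and the mitochondrial enzyme SOD2. IL1A is among them although it passed the expression filter through its control libraries alone, so it adds nothing to the count as support. Over all 12670 genes 5.37% were called, 3.05% as lower. The median change of the tested pathway genes was -0.19 against -0.04 over all genes, and 30 of 37 had a negative sign. Groups did not overlap for 18 of the 37 genes, all 18 lower with miR-628-3p, where 30.0% of all genes did not overlap and 17.7% were lower without overlap. Fewer cells making a message and less of it per cell cannot be told apart in these bulk libraries, and each p-value measures only the spread between libraries, because the labels do not name separate cultures.

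LIF (ENSG00000128342, GRCh38 chr22:30240453-30246759) showed the strongest fall. It measured 9.56, 10.8 and 9.30 FPKM in the empty vector libraries and 4.79, 4.85 and 4.31 with miR-628-3p. Every miR-628-3p library lay at about the same level, and the highest was below the lowest control. The change was -0.95 (log2, SE 0.08, adjusted p = 0.00178 by limma), which left 47.0% of the control mean.

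CSF1 (chr1:109910242-109930992) measured 58.9, 63.9 and 57.3 FPKM in the controls and 38.0, 41.6 and 34.0 with miR-628-3p, without overlap. Its mean fell to 63.1% of the control (-0.65, SE 0.09, adjusted p = 0.00768). In MHCC97H it is the most abundant of the 9 cytokines.

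The 2 IL-1 genes, neighbours on chromosome 2, both fell. IL1A (chr2:112773925-112784493) measured 1.86, 1.64 and 2.17 FPKM in the controls and 0.839, 0.825 and 1.03 with miR-628-3p, on 57 to 80 and 28 to 38 reads. Its change was -0.61 (SE 0.10, adjusted p = 0.0192), and it passed the expression filter only through its control libraries, since the miR-628-3p mean was 0.897 FPKM. IL1B (chr2:112829751-112836816) measured 12.3, 12.96 and 12.9 FPKM in the controls and 9.42, 9.90 and 8.54 with miR-628-3p, a change of -0.42 (SE 0.07, adjusted p = 0.0224). Neither gene's groups overlapped.

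IL18 and IL32 had groups without overlap and missed the threshold. IL18 measured 26.7, 25.6 and 28.6 FPKM in the controls and 22.8, 19.7 and 21.3 with miR-628-3p (-0.33, adjusted p = 0.0513). IL32 measured 43.0, 41.4 and 43.4 FPKM against 29.5, 36.5 and 27.0 (-0.46, adjusted p = 0.0525). In both the 3 control libraries sat close together and above all 3 miR-628-3p libraries. Setting IL1A aside, the 5 cytokines tested had lower, separate miR-628-3p libraries, 3 of them called (LIF, CSF1 and IL1B). The share without overlap has to be read beside the 17.7% of all genes given above.

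The receptors did not share a direction. TNFRSF12A (chr16:3018445-3022383) measured 73.6, 87.3 and 79.4 FPKM in the controls and 50.8, 50.8 and 42.2 with miR-628-3p, with no overlap, and fell to 59.8% of the control mean (-0.73, SE 0.10, adjusted p = 0.00773). TNFRSF1A measured 175, 181 and 175 FPKM in the controls and 213, 230 and 181 with miR-628-3p, where library 3 alone reached down to the control range (0.22, adjusted p = 0.206). TNFRSF1B changed by 0.05, with an adjusted p of 0.827 and a 95% interval from -0.20 to 0.30.

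Among effector targets, SOD2 (chr6:159669069-159762529), which detoxifies superoxide in mitochondria and is a known NF-kB target, was the most tightly measured of the 6. It gave 14.9, 15.2 and 15.5 FPKM in the controls and 9.65, 9.78 and 10.1 with miR-628-3p, a change of -0.58 (SE 0.06, adjusted p = 0.00349). The libraries of each group lay within 1 FPKM of each other. ICAM1, the adhesion molecule that leukocytes bind, measured 78.9, 82.9 and 78.1 FPKM against 62.0, 75.6 and 55.9, without overlap (-0.32, adjusted p = 0.134).

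**Figure D2:**
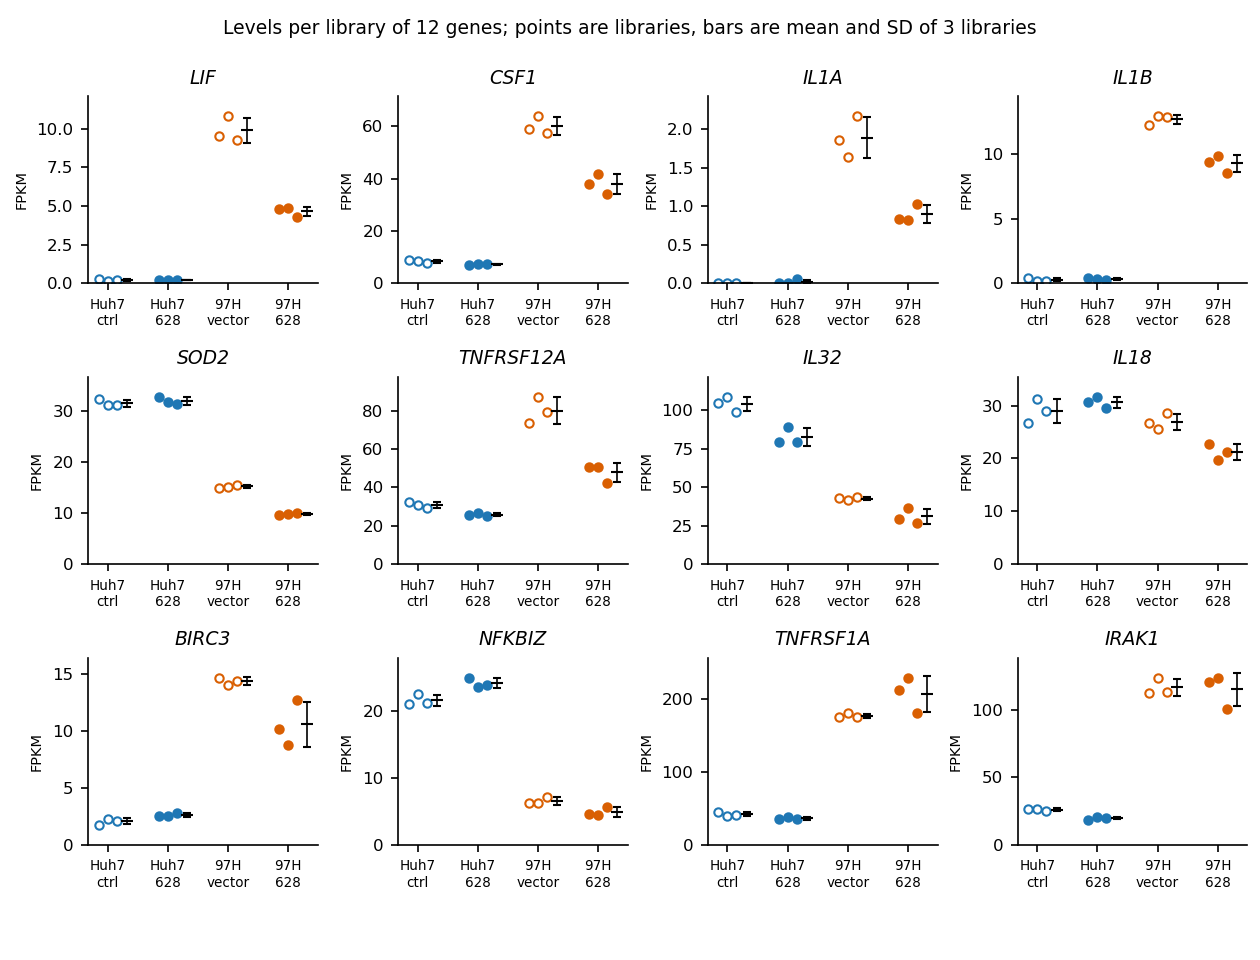
FPKM of 12 pathway genes in each library; open points are controls (ctrl or vector), filled points miR-628-3p libraries, blue Huh7 and orange MHCC97H (97H), and the black bar is the mean ± SD of 3 libraries. In LIF, CSF1, IL1A, IL1B, SOD2 and TNFRSF12A all filled orange points lie below all open orange points, while filled and open blue points of SOD2 share 1 level near 32 FPKM.

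On the values as deposited, no subunit, inhibitor, kinase, adaptor or regulator was called in MHCC97H. The 4 subunits tested changed by -0.33 (RELB), -0.20 (NFKB2), -0.19 (NFKB1, p105/p50) and -0.07 (RELA, p65), with adjusted p from 0.126 to 0.717. The inhibitor NFKBIA (IkB alpha), itself a target of NF-kB, measured 43.4, 45.2 and 45.9 FPKM in the controls and 39.3, 44.3 and 32.5 with miR-628-3p (-0.22, adjusted p = 0.28), and its groups overlapped. TNFAIP3 (A20), the other classical feedback gene, changed by -0.04 with a 95% interval from -0.22 to 0.14. BIRC3 measured 14.7, 14.0 and 14.4 FPKM against 10.2, 8.81 and 12.8 (-0.42, adjusted p = 0.088), and NFKBIZ 6.24, 6.27 and 7.22 against 4.62, 4.44 and 5.71 (-0.36, adjusted p = 0.0937). Neither gene's groups overlapped. Among adaptors the largest change was that of RIPK2, the kinase downstream of NOD receptors, at -0.29 (adjusted p = 0.0824), and IRAK1 changed by -0.02. The other adaptors RIPK1, IRAK2, MYD88, TRAF6 and TRAF2 changed by -0.19, -0.16, -0.02, -0.01 and 0.04. The kinases CHUK and MAP3K14 changed by -0.09 and 0.16, and the regulators BIRC2, TNIP2, TNIP1 and TNFAIP2 by -0.25, 0.00, 0.06 and 0.14. Of the inhibitors NFKBIE (IkB epsilon), BCL3 and NFKBIB changed by -0.14, -0.01 and 0.01. REL, TRAF1, IL6, TNF and LTB were under the filter in both lines and were not tested. After a correction of each library for GC content and transcript length, blind to group, NFKB1 (-0.22, adjusted p = 0.0168), NFKB2 (-0.20, adjusted p = 0.0304), RELB (-0.30, adjusted p = 0.0185) and IKBKB (-0.27, adjusted p = 0.005) were called lower in MHCC97H too, with RIPK1, RIPK2, IRAK2, BIRC3, NFKBIZ, ICAM1 and IL32, where 15.7% of all genes were called.

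IKBKG, the regulatory NEMO subunit of IKK, scattered most. It gave 13.4, 19.3 and 13.7 FPKM in the controls and 13.3, 13.3 and 9.54 with miR-628-3p (-0.33, SE 0.17, adjusted p = 0.297). It has a near-identical copy beside it on the X chromosome, and the labels do not say how reads were split between them, so its level is uncertain.

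Library 3 of the MHCC97H miR-628-3p group bears on these counts. Without it 13 pathway genes were called, 12 lower and 1 higher, and the count over all genes was 1604 in place of 680. BIRC3 then fell by 0.55 (adjusted p = 0.00682), NFKBIZ fell by 0.45 (adjusted p = 0.019), and TNFRSF1A rose by 0.32 (adjusted p = 0.0127). Without vector library 3 the count was 3, with 142 over all genes, and TNFRSF12A had an adjusted p of 0.0521. LIF, SOD2 and CSF1 were called with every library left out in turn and under every other setting run. IL1A and IL1B lost the call with no expression filter (adjusted p = 0.0715 and 0.0525) and without any 1 of the 3 vector libraries or miR-628-3p library 1, with changes of -0.54 to -0.67 and -0.40 to -0.44 then. After the GC and length correction 18 pathway genes were called, 17 lower and 1 higher (TNFRSF1A), where 7.35% of 12630 genes were called lower. The endothelial marker sum (5 genes, KDR and PECAM1 at 1 FPKM or more and CLDN5 at 0 reads) was 5.83 to 6.59 FPKM in the controls and 8.999 to 9.51 with miR-628-3p. PECAM1 rose by 0.65 (adjusted p = 0.0039), while KDR changed by 0.03 (adjusted p = 0.873). The fibroblast sum (6 genes, LUM alone at 1 FPKM or more) was 1.74 to 2.13 and 2.41 to 3.15. The hepatocyte sum was 2087 to 2204 and 1902 to 2473, and 1 of its 8 tested genes was called, ALB, which rose by 1.45 (adjusted p = 0.000185). Of the leukocyte markers LYZ was tested, with a change of 0.32 (adjusted p = 0.12) and no overlap. The part of these markers in the falls was not tested.

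**Figure D3:**
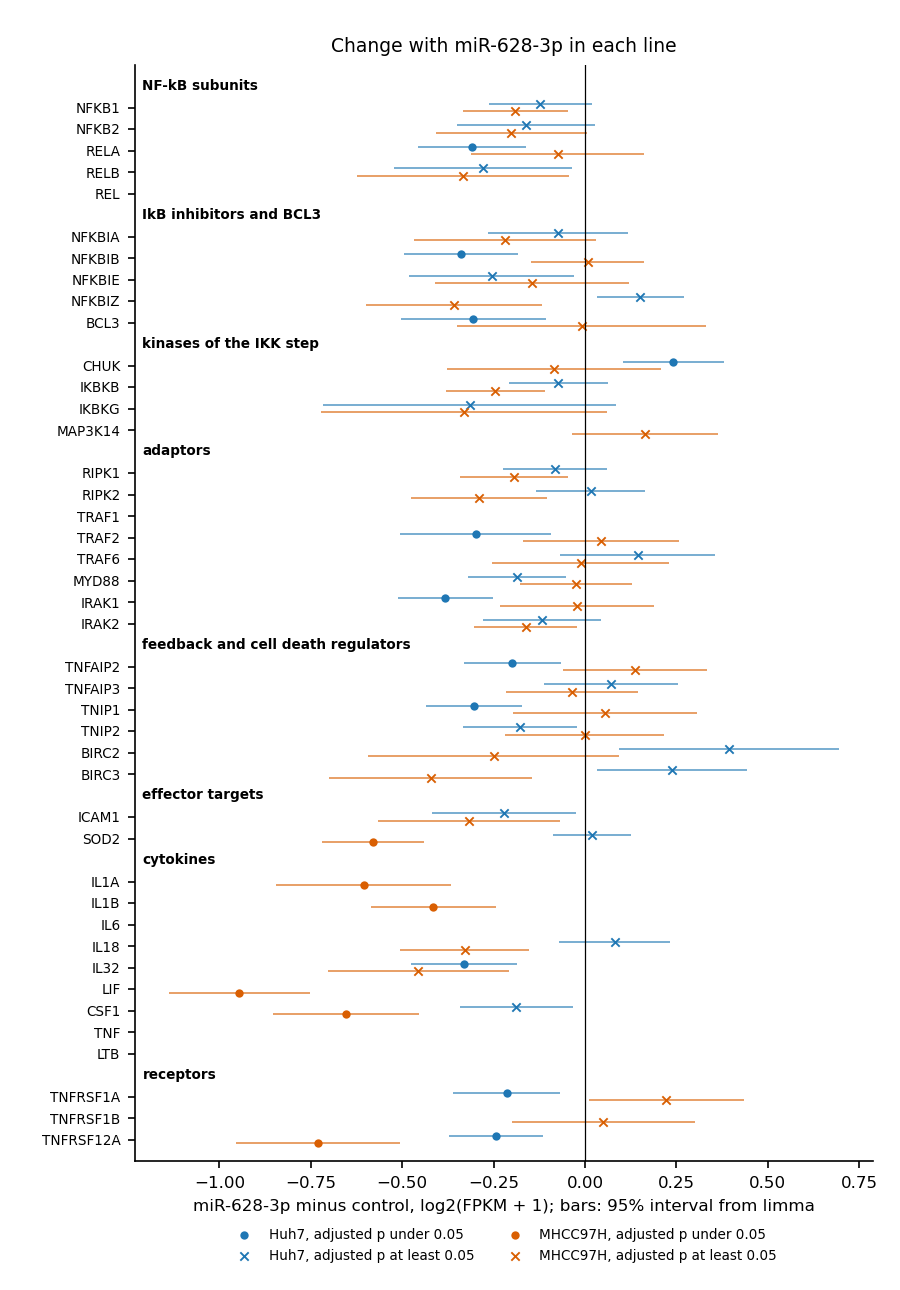
Change with miR-628-3p in each line on the log2(FPKM + 1) scale for the 42 pathway genes by role, with 95% intervals from limma; filled circles are called, crosses are not, and rows without a mark were not tested. The orange circles of MHCC97H sit among the cytokines, SOD2 and TNFRSF12A, at -0.42 to -0.95, while the blue circles of Huh7 lie between -0.38 and -0.20 apart from CHUK at 0.24.

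Other genes of the pathway were read from a pair of further lists. Both lists were chosen with earlier results of these data known, so their counts beside all genes are no independent test. Of 30 further NF-kB target genes 16 were tested in MHCC97H and 8 were called lower, where 3.05% of all genes were. The median change was -0.44, and 5 of the 16 had a positive change, VCAM1 and TNFSF10 with higher, separate miR-628-3p libraries and no call. The 8 called lower were the chemokines CCL20, CXCL1, CXCL2, CXCL3, CXCL5 and CXCL8, which draw leukocytes, with LCN2 and PLAU. LCN2 is a siderophore-binding acute phase protein, and PLAU is the urokinase that activates plasminogen. CCL20 measured 26.7, 26.7 and 27.3 FPKM in the controls and 10.1, 10.1 and 10.0 with miR-628-3p (-1.33, SE 0.06, adjusted p = 0.000147). CXCL1, CXCL2 and CXCL3 are close copies of each other, so their single values (-1.03, -1.05 and -0.60) are uncertain. With the empty vector they averaged 6.47 ± 0.499, 8.52 ± 0.473 and 7.22 ± 0.45 FPKM, and with miR-628-3p 2.71 ± 0.692, 3.61 ± 0.551 and 4.43 ± 0.527. CXCL5 fell by 0.67 (adjusted p = 0.00296), from 86.2 ± 1.55 to 53.9 ± 3.47 FPKM, and CXCL8 fell by 0.89 (adjusted p = 0.00333), from 6.42 ± 0.468 to 3.02 ± 0.302. LCN2 fell by 0.80 (adjusted p = 0.00374), from 47.96 ± 1.65 to 27.2 ± 3.12 FPKM.

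Of 41 further signalling genes 35 were tested in MHCC97H and 1 was called, a share below the 5.37% of all genes. RBCK1, the HOIL-1 subunit of the complex that builds linear ubiquitin chains on NEMO and RIPK1, measured 42.3, 43.0 and 42.2 FPKM in the controls and 24.9, 26.7 and 21.8 with miR-628-3p. The change was -0.78 (SE 0.08, adjusted p = 0.00349), and every control stood above every miR-628-3p library. The median over the 35 was -0.10, against -0.04 over all genes. In Huh7 9 of 34 were called, 3 higher (IL1RAP, TBK1, TAB2) and 6 lower (TOLLIP, TAB1, RBCK1, ZC3H12A, LTBR, FADD), and of 17 targets tested 3 were called, CXCL5 higher and IRF1 and BCL2L1 lower. There 21.1% of all genes were called, and 1 gene of the whole table after the GC and length correction. TOLLIP changed by -0.28 (adjusted p = 0.0272) and TAB1 by -0.39 (adjusted p = 0.0276).

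In Huh7 with the mimic the called changes lay between -0.38 and 0.24 on the log2 scale. Of 32 pathway genes tested 11 were called, 10 lower and 1 higher, where 21.1% of all 12508 genes were called, 14.4% as lower and 6.75% as higher. The median change was -0.18 against -0.05 over all genes, and 16 genes were lower and 4 higher without overlap of groups, where 29.3% and 19.5% of all genes were, 48.8% in all.

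IRAK1 changed most among the called genes. It measured 26.5, 26.7 and 24.9 FPKM in the controls and 18.7, 20.5 and 20.2 with the mimic (-0.38, SE 0.06, adjusted p = 0.0272). NFKBIB, the IkB beta inhibitor, measured 15.3, 15.6 and 13.9 FPKM against 10.8, 11.8 and 12.2 (-0.34, adjusted p = 0.028). Both had groups well apart.

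IL32 measured 105, 109 and 99.3 FPKM in the controls and 79.3, 89.4 and 79.5 with the mimic (-0.33, adjusted p = 0.0278). It was the single cytokine called in Huh7. RELA, the main activating subunit, measured 15.9, 14.8 and 15.6 FPKM against 11.5, 13.2 and 12.1 (-0.31, adjusted p = 0.0292). BCL3, an IkB-like coactivator of p50 and p52 dimers, measured 8.57, 10.4 and 8.25 FPKM against 7.20, 7.35 and 6.83 (-0.31, adjusted p = 0.0433). In each of these every control exceeded every mimic library.

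TNIP1, a partner of A20 that restrains the pathway, measured 28.4, 26.4 and 27.9 FPKM in the controls and 20.9, 23.1 and 22.4 with the mimic (-0.30, adjusted p = 0.0277). TRAF2, an adaptor of TNF receptors, measured 10.8, 12.05 and 10.9 FPKM against 7.73, 9.41 and 9.80 (-0.30, adjusted p = 0.0484). TNFAIP2, a gene named for its induction by TNF, measured 16.1, 16.5 and 15.2 FPKM against 13.03, 14.2 and 14.1 (-0.20, adjusted p = 0.0454). These changes left 79.9% to 86.4% of the control means.

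Both receptors tested in Huh7 were called lower. TNFRSF12A measured 32.2, 30.7 and 29.02 FPKM in the controls and 25.7, 26.5 and 24.8 with the mimic (-0.24, adjusted p = 0.0306). TNFRSF1A measured 45.4, 40.2 and 41.3 FPKM against 34.8, 38.5 and 35.7 (-0.21, adjusted p = 0.0474). The 1 gene that rose was CHUK, which encodes IKK alpha, at 15.9, 17.1 and 17.7 FPKM in the controls and 21.0, 20.2 and 19.2 with the mimic (0.24, adjusted p = 0.0344).

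The other 21 genes tested in Huh7 were not called. Closest to the threshold were MYD88, the adaptor of IL-1 and Toll-like receptors (-0.19, adjusted p = 0.0545), and BIRC2, a ubiquitin ligase related to BIRC3 (0.39, adjusted p = 0.0623), whose groups did not overlap. The feedback genes NFKBIA and TNFAIP3 changed by -0.08 and 0.07, with adjusted p of 0.518 and 0.526. The subunits RELB, NFKB2 and NFKB1 changed by -0.28, -0.16 and -0.12. MAP3K14, IL1A, IL1B, LIF and TNFRSF1B were tested in MHCC97H alone, being under a mean of 1 FPKM in Huh7.

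These Huh7 changes ran with base composition. Across 12452 genes the Spearman rho between change and the GC content of the longest transcript was -0.72, and across the 32 pathway genes it was -0.83. These are correlations across genes that share the same 6 libraries, given as a description. The pathway genes are GC-rich, with a median of 57.0% against 47.1% over all genes, and the called ones had a median of 60.5%. CHUK, at 36.3%, was the called gene with the least GC, and BCL3, at 67.4%, the one with the most.

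After the GC and length correction 0 of the 32 pathway genes were called in Huh7, and 1 of 12452 genes (0.00803%). Because GC content and the Huh7 groups move together, the correction also takes out any mimic effect that follows GC content. A GC trend of the libraries and such an effect cannot be told apart. Without correction 20 of the 32 had an unadjusted p under 0.05 by limma (41.9% of all genes), and limma voom on the recovered reads called 10. The median change of the pathway genes moved from -0.18 to -0.03, and the TNFRSF12A change turned from -0.24 to 0.04. The count also fell to 0 without control library 2 or without any of the 3 mimic libraries, and to 4 without control library 1. The fibroblast marker sum (6 genes, LUM and COL1A2 at 1 FPKM or more, THY1 at 0 reads) was 43.5 to 55.2 FPKM in the controls and 60.7 to 65.6 with the mimic, and its part was not tested. In MHCC97H the same rho was 0.17 across genes and 0.30 across the 37 pathway genes.

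**Figure D4:**
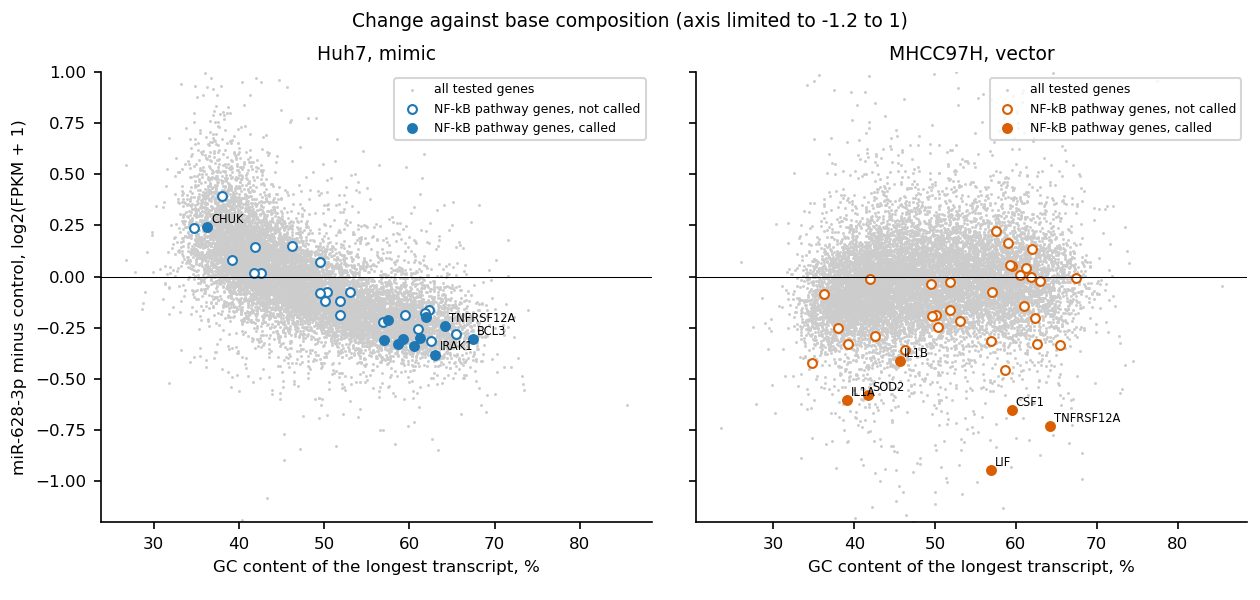
Change with miR-628-3p (log2) against the GC content of the longest transcript in percent, Huh7 left and MHCC97H right; grey dots are all tested genes, open circles pathway genes not called and filled circles called ones. In Huh7 the pathway genes follow the downward slope of the grey dots, and in MHCC97H the 6 called genes lie at the lower edge of the grey dots at GC contents from 39.1% to 64.2%.

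**Figure D5:**
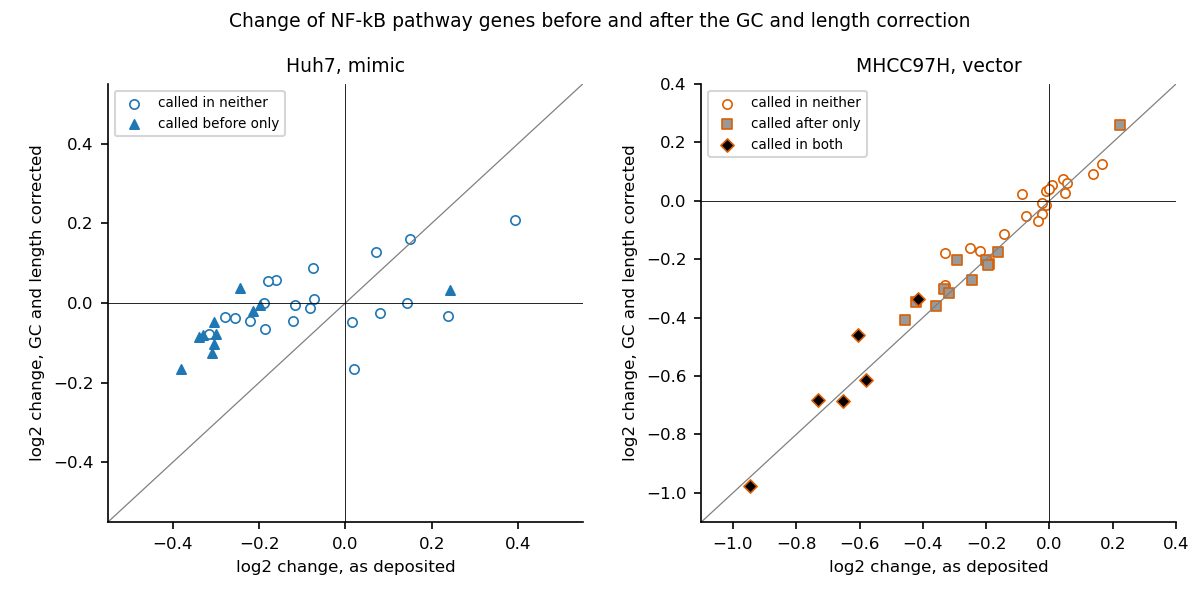
Change of each pathway gene (log2) before the GC and length correction (horizontal) and after it (vertical), with the line of equality. In Huh7 most changes move toward 0 and no call is left; in MHCC97H points stay near the line, with 6 genes called in both and 12 called after correction alone.

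The difference between the responses was tested with an interaction term over all 12 libraries, as the MHCC97H change minus the Huh7 change. Of 36 pathway genes tested 11 were called, 8 lower and 3 higher, where 12.9% of 13171 genes were called, 5.43% as lower and 7.43% as higher. LIF and IL1B are among the 8 and passed the filter through MHCC97H alone, so their differences are values that support nothing, and 9 others were called. SOD2 gave the clearest difference, at -0.60 (SE 0.07, adjusted p = 0.000346). In Huh7 it measured 32.4, 31.1 and 31.2 FPKM in the controls and 32.8, 31.8 and 31.3 with the mimic, a change of 0.02 with a 95% interval from -0.09 to 0.13. SOD2 thus stood at a higher level in Huh7, and its MHCC97H fall exceeded its Huh7 change.

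CSF1 differed by -0.47 (adjusted p = 0.0218). In Huh7 it measured 8.87, 8.30 and 7.75 FPKM against 6.80, 7.43 and 7.28 (-0.19, adjusted p = 0.0725). TNFRSF12A differed by -0.49 (adjusted p = 0.0225), and it was the 1 pathway gene called lower in both lines on the values as deposited. Its Huh7 change was 0.04 and not called after the GC and length correction. Its Huh7 call also held in only 1 of the 6 fits that left out a library.

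LIF and IL1B differed by -0.93 and -0.46 (adjusted p = 0.000364 and 0.0279). Huh7 had little of either to lose. LIF gave 0.265, 0.148 and 0.204 FPKM in its controls and 0.182, 0.193 and 0.211 with the mimic. IL1B gave 0.417, 0.208 and 0.201 FPKM against 0.390, 0.305 and 0.237, and on log2(FPKM + 1) such low levels leave no room for a fall. With a pseudocount of 0.1 the IL1B difference had an adjusted p of 0.16.

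Of the 11 genes 3 were called in neither line and had changes of opposite sign in the lines. NFKBIZ, a nuclear IkB that helps NF-kB at secondary response genes, measured 21.2, 22.7 and 21.3 FPKM in Huh7 controls and 25.1, 23.6 and 23.9 with the mimic (0.15), beside -0.36 in MHCC97H, a difference of -0.51 (adjusted p = 0.0191). BIRC3 measured 1.78, 2.30 and 2.12 FPKM against 2.49, 2.53 and 2.81 in Huh7 (0.24), beside -0.42, a difference of -0.66 (adjusted p = 0.0203). IL18 measured 26.7, 31.3 and 28.9 FPKM against 30.8, 31.7 and 29.5 in Huh7 (0.08), beside -0.33, a difference of -0.41 (adjusted p = 0.0263). NFKBIZ and BIRC3 did not overlap in either line, and IL18 overlapped in Huh7.

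Positive differences were called for 3 genes. TNFRSF1A differed by 0.44 (adjusted p = 0.0319), NFKBIB by 0.35 (adjusted p = 0.0342) and IRAK1 by 0.36 (adjusted p = 0.0496). In MHCC97H, NFKBIB measured 25.9, 26.3 and 25.6 FPKM against 26.4, 27.7 and 24.3, and IRAK1 113, 124 and 114 against 121, 124 and 101, so both overlapped there. After the GC and length correction 10 differences were called, where 15.3% of 13125 genes were. Among them SOD2 (-0.45), LIF (-1.11), CSF1 (-0.67), TNFRSF12A (-0.70), IL1B (-0.43), NFKBIZ (-0.52), BIRC3 (-0.33) and TNFRSF1A (0.29) were called in both fits, IL32 and IKBKB were added, and IL18, NFKBIB and IRAK1 were lost. Without MHCC97H miR-628-3p library 3 the count of differences was 20, with 4670 over all genes in place of 1694, and without MHCC97H vector library 3 it was 3, with 637. It was 4 without MHCC97H vector library 1 (650 over all genes), 5 without Huh7 control library 1 (705), 6 without Huh7 mimic library 1 or 2 (845 and 1040), and 7 without MHCC97H miR-628-3p library 1 (831).

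Across the 32 genes tested in both lines, 18 changes were negative in both, 0 were positive in both, 9 were positive in Huh7 and negative in MHCC97H, and 5 the reverse. The same split over all genes was not counted, so it is given as a description. The median change over all genes was itself negative, at -0.05 in Huh7 and -0.04 in MHCC97H. The lines have separate controls. Set beside the promoters shown first, 0 of the 10 tested genes with a kappaB match were called in MHCC97H on the values as deposited. Of the 19 without a match 3 were (SOD2, IL1B and IL1A, the last set aside above), where 5.37% of all genes were. The other called genes LIF, CSF1 and TNFRSF12A had no entry. In Huh7 4 of 10 with a match and 6 of 15 without were called, where 21.1% of all genes were. After the GC and length correction NFKB1, NFKB2, NFKBIZ, BIRC3 and IL32, all with a match, were called in MHCC97H too. So were TNFRSF1A, ICAM1, IRAK2 and RIPK1 without a match, and 0 pathway genes were called in Huh7. The window covers 300 bases around a start and was searched for 1 consensus, and nothing about NF-kB itself can be read from these counts.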

How the data were processed

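Messenger RNA of 12 libraries was measured by poly-A selected, dUTP-stranded paired-end sequencing, per the labels' protocols. HISAT2, HISAT and HTSeq with GRCh38 and hg38 are named in the submitters' processing notes, without versions; the use of strand in counting is not stated there, so overlapping antisense genes cannot be separated. The deposited values are FPKM, which the authors scaled to exon length and to each library's total over the table, with no scaling between libraries. Reads were worked back from the FPKM steps.

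Each comparison was fitted on log2(FPKM + 1) by limma 3.58.1 (R 4.3.3), with eBayes and a mean-variance trend, over all genes with a mean of at least 1 FPKM in the libraries of the fit; the pseudocount understates changes of weakly expressed genes. A gene was called at a Benjamini-Hochberg adjusted p under 0.05 over all tested genes. Intervals in the text are 95% intervals. The fits were run on simulated counts with the same spread setting for every gene and no library standing apart. The libraries here are less even, so the simulation does not show how the fits behave on them. The count limit for 0 reads covers counting error only. The GC and length correction removed from each library a spline (5 degrees of freedom) of its log2 deviation from the mean, without using the groups.

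The pathway genes, the further gene lists and the tests were chosen with earlier results of these data known. All 42 genes are accounted for; values in every library are given for genes called in a line or for the difference between lines, and the rule for the further lists was to name the called genes with the smallest p, up to 6 per list and line. CXCL3, PLAU, TBK1, FADD, TAB2, VCAM1 and TNFSF10 were named beyond it after their values were seen. Values in every library of ICAM1, NFKBIA and IKBKG were added after their values were seen. Deviations of same-numbered libraries correlated at -0.08 to 0.04 in Huh7, where other pairs gave -0.15 to 0.17. In MHCC97H they correlated at -0.09, 0.30 and 0.13, where other pairs gave -0.34 to 0.25. No block was used in the main fits. Alternatives changed the pseudocount (0.1), the filter, the scaling (median, quantile, limma voom with TMM factors on recovered reads), the trend, the correction, the block and the joint fit, and left out each library. Python 3.11.15, numpy 2.4.6, pandas 2.3.3, scipy 1.17.1 and matplotlib 3.10.9 were used for the searches and figures.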

Additional observations from a re-analysis of the deposited data

Results flagged for a closer look

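The response to miR-628-3p differed between the lines, by the interaction term in limma, for 11 pathway genes. As the MHCC97H change minus the Huh7 change on the log2 scale, the difference was -0.93 for LIF, -0.66 for BIRC3, -0.60 for SOD2, -0.51 for NFKBIZ, -0.49 for TNFRSF12A, -0.47 for CSF1, -0.46 for IL1B, -0.41 for IL18, 0.35 for NFKBIB, 0.36 for IRAK1 and 0.44 for TNFRSF1A. LIF and IL1B passed the expression filter through MHCC97H alone, so their differences are given as values and support nothing. SOD2 was called for this difference under all 21 alternatives run, 9 settings and 12 libraries left out in turn. The call was lost in 6 of the 9 settings and with 11 of the 12 libraries left out for IRAK1, in 5 and 9 for NFKBIB, 2 and 9 for TNFRSF1A, 3 and 5 for IL18, 1 and 3 for BIRC3, and 1 and 2 for TNFRSF12A. NFKBIZ lost its call without Huh7 control library 1 (adjusted p = 0.0503) and without MHCC97H vector library 3 (adjusted p = 0.0539), and CSF1 lost it without MHCC97H vector library 1 (adjusted p = 0.0504). Mimic and vector differ between the lines as well, so delivery and line cannot be told apart.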

How the results depend on the processing

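In Huh7 the count of all genes called moved from 2642 to 7 with no expression filter, 1694 without a trend in eBayes, 1 with the GC and length correction and 866 in a joint fit of 12 libraries, and the count of pathway genes from 11 to 0, 7, 0 and 2 in the same settings. In MHCC97H all genes called moved from 680 to 326 with no filter, 1981 with the correction and 1672 in the joint fit, and pathway genes from 6 to 18 with the correction and 13 in the joint fit. Differences between the lines moved from 1694 genes to 967 and from 11 pathway genes to 5 with no filter. Leaving out 1 library gave 0 to 1661 genes and 0 to 8 pathway genes in Huh7, 142 to 1604 and 3 to 13 in MHCC97H, and 637 to 4670 and 3 to 20 for the difference. The cause of these moves was not tested. Baseline counts stayed within 1.5 times.

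A replicate block gave 1187 genes and 5 pathway genes in Huh7, 495 and 6 in MHCC97H, 1106 and 9 for the difference, and 11001 and 32 for the baseline. With the block and the correction there was 1 gene and 0 pathway genes in Huh7, 1651 and 17 in MHCC97H, and 1569 and 8 for the difference. Deviations of same-numbered MHCC97H libraries 2 and 3 correlated at 0.30 and 0.13, so a pairing by number was not settled there.

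The Huh7 change of TNFRSF12A turned to 0.0376 with the correction, with and without the block. Of 503 settings run on single called genes, 305 kept sign and call, 196 kept the sign only and 2 reversed. Scaling moved the split of higher and lower calls, in Huh7 from 844 and 1798 to 1141 and 1158 (median), 1352 and 1394 (quantile) and 1626 and 1494 (voom), and in MHCC97H from 294 and 386 to 384 and 330, 417 and 324, and 457 and 331. Pathway calls in Huh7 were then 2 higher and 6 lower, 2 and 9, and 4 and 6, and in MHCC97H the 6 stayed lower in each. REL, TRAF1, IL6, TNF and LTB stayed under a mean of 1 FPKM in both lines and were not tested.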
